A study of Mus musculus with 39 samples.

Results

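The NRF2 antioxidant response was followed in mouse subcutaneous adipose tissue through 8 genes, which were the transcription factor gene Nfe2l2, its inhibitor Keap1 and the target genes Nqo1, Hmox1, Gclc, Gclm, Txnrd1 and Srxn1. They were found by gene name among the 29411 gene names of a whole-genome Agilent array, where all 8 were present with 11 probes in total. C57BL/6J mice were weaned at 3 to 4 weeks of age and divided into 5 groups of 30 animals. LFC mice ate a normal diet with 10% of calories from fat, and HFC mice ate a high-fat, high-sucrose diet with 60% of calories from fat. HF5, HF20 and HF75 mice ate the HFC diet with 5, 20 or 75 µg of KAL-1, a water-based preparation of plants, so that all KAL-1 groups share the high-fat diet and none received KAL-1 on the normal diet. RNA from the tissue was read on 39 one-colour arrays, 1 for each diet and time point. LFC was read at 10 time points (3 between Day 6 and Day 14, then Week 0 and every 3 weeks from Week 3 to Week 18), HFC at the same 10 and at Day 1, and each KAL-1 group at the 6 time points from Week 3 to Week 18. The paper on the liver arrays of this experiment counts weeks after Day 14. By that count Day 14 and Week 0 are the same length of feeding, and they are kept here as separate time points. From Week 3 on, 5 animals of a group were taken at each sampling, and the design text names 3 biological replicates, but the labels do not say whether an array holds RNA of 1 mouse or of several, so that the spread given here is the spread between arrays of different time points.

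NRF2, the protein of Nfe2l2, is a transcription factor that is held in the cytoplasm by KEAP1 and passed to the proteasome. Oxidants and reactive plant compounds modify cysteines of KEAP1, upon which NRF2 accumulates, enters the nucleus, pairs with small MAF proteins and binds antioxidant response elements in front of its targets. These targets reduce quinones (Nqo1), degrade heme (Hmox1), make glutathione (Gclc and Gclm, the catalytic and the modifier subunit of glutamate-cysteine ligase) and reduce thioredoxin and oxidised peroxiredoxins (Txnrd1 and Srxn1). Because NRF2 is controlled mainly through the stability of its protein, the mRNA levels of Nfe2l2 and Keap1 do not report its activity, and the target mRNAs are the usual readout.

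Stretches in front of the transcription start of 4 of the genes are printed to show where their letters match the antioxidant response element or a related site. They come from RefSeq promoter windows of build GRCm38.p6 that reach from 250 bases before to 50 bases after the start, which were held here for 6 of the 8 genes, all but Hmox1 and Gclc. The core of the antioxidant response element was searched as TGACNNNGC on both strands and occurred in 12.4% of 32851 windows of all genes. TGAGTCA, a site form shared by NRF2 with small MAF proteins and by AP-1 factors, occurred in 5.20% of them. Capitals mark the core in the stretches of Nfe2l2 (chr2:75704814-75704913, minus strand), Gclm (chr3:122245383-122245482, plus strand) and Txnrd1 (chr10:82859074-82859173, plus strand), and TGAGTCA in that of Srxn1 (chr2:152105394-152105493, plus strand). Each is written 5′ to 3′ in the direction of the gene.
Nfe2l2: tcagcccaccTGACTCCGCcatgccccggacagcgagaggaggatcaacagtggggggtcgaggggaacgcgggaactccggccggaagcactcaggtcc
Gclm: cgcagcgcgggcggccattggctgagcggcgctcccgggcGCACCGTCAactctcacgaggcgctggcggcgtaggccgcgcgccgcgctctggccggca
Txnrd1: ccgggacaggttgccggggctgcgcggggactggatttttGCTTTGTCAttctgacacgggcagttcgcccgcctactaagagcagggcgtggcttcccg
Srxn1: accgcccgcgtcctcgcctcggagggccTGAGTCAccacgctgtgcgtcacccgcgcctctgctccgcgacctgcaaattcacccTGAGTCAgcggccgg
In Gclm and Txnrd1 the core lies on the opposite strand and is therefore printed as its reverse complement. The Txnrd1 stretch belongs to 1 of 3 starts of this gene. Srxn1 held TGAGTCA at -102 and at -45 from its start, and the core once at 29 bases after the start on the opposite strand. The windows of Nqo1 and Keap1 held neither run of letters. These are matches of letters, not measured binding.

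A level here is the log2 of the processed spot intensity minus the log2 of the 75th percentile of all genes' spots on that array, so that 0 is the 75th percentile and a difference of 1 is a doubling within a probe. Levels of different genes are not comparable, since each comes from its own probe. The RNA is that of the whole tissue, in which fewer cells of a type and less RNA per cell cannot be told apart. All 11 probes were well above background on all 39 arrays, and none was saturated or left out as an outlier spot. The adipocyte markers Adipoq, Plin1, Cidec, Lipe, Fabp4 and Pck1 were all well above background on all 39 arrays. These genes do not tell one fat depot from another. The 3 red blood cell genes and Acta1 of skeletal muscle were also well above background on all 39 arrays, and the mean level of the 3 brown fat markers ran from -4.79 to 4.04. Between 49.3% and 87.8% of spots were well above background per array, with a median of 65.7%.

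Before the results, 4 matters about the arrays have to be stated. First, 6 arrays stood apart in the immediate early genes Fos, Jun, Junb, Egr1 and Atf3, which respond within minutes to stimulation and handling. Their mean level was between -0.48 and 0.07 on the LFC and HFC arrays of Day 6, the HFC arrays of Day 1 and Day 10, the LFC array of Week 12 and the HF75 array of Week 3, and between 4.45 and 6.18 on the other 33 arrays. The 4 heat shock genes on the array were also lower on these 6 (mean level 1.20 to 2.94, against 3.75 to 7.06), and 5 skeletal muscle genes had a median mean level of 5.30 on the 6, against -0.81 on the others. Values without these 6 arrays follow in the text. Second, the authors' own table of ratios held the HF5 and HF20 arrays of Week 12 under each other's name (correlation of 0.999 with the exchanged scanner file and of 0.664 with the labelled one, for HF5), so that these 2 labels are in doubt. The labels were kept, and values with the 2 arrays exchanged were computed as well. The title of the HF5 array of Week 12 has the letter B after the week, where those of HF20, HF75 and HFC have S. The column of that title matched the array labelled HF20, which had the highest mean level of the brown fat markers (4.04). What this means for the tissue was not tested. The LFC array of Week 3 stood apart in 5 lymphocyte genes, with a mean level of 1.69, against at most -0.29 on any other array. Lastly, the HF20 array of Week 15 had 4936 outlier spots, against a median of 42 over all arrays.

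The 2 regulators were well expressed at every time point. Nfe2l2 lay between 2.05 and 4.50 in LFC (median 3.24, n = 10), between 1.80 and 4.01 in HFC (3.56, n = 11), between 2.81 and 3.85 in HF5 (3.59, n = 6), between 3.17 and 3.76 in HF20 (3.61, n = 6) and between 2.37 and 4.34 in HF75 (3.67, n = 6). The ranges of all 5 diets overlapped, and the 6 arrays low in immediate early genes held most of the lowest levels (1.80 to 2.47, against 2.32 to 4.50 on the other 33). A second Nfe2l2 probe followed the first closely over the 39 arrays (Pearson's r 0.957, Spearman's rho 0.940).
Keap1, the substrate adaptor that directs NRF2 to ubiquitination, ran from 1.99 to 3.31 in LFC (median 2.78), from 1.27 to 3.56 in HFC (2.56), from 2.17 to 2.80 in HF5 (2.42), from 2.04 to 2.91 in HF20 (2.56) and from 2.43 to 4.30 in HF75 (2.75). Here too the diets overlapped. The highest level of all, 4.30, was that of the HF75 array of Week 3, and the lowest, 1.27, that of the HFC array of Week 15.

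Among the targets, Hmox1 varied most, with an SD of 1.67 over the 39 arrays, against 0.50 to 1.13 for the other 7 genes. Hmox1, the inducible heme oxygenase, ranged from 0.50 to 5.35 in LFC (median 2.24), from -0.04 to 4.71 in HFC (2.56), from 2.44 to 5.13 in HF5 (3.31), from -1.60 to 5.10 in HF20 (1.60) and from -0.71 to 4.92 in HF75 (1.84). At Week 3 its level was 0.50 in LFC, 0.58 in HFC, 3.70 in HF5, -1.60 in HF20 and -0.71 in HF75, and at Week 6 it was 2.95, 4.16, 5.13, 5.10 and 4.92 in the same order. Each diet was thus higher at Week 6 than at Week 3, least so in HF5 (3.70 to 5.13) and most in HF20 (-1.60 to 5.10).
Nqo1, the quinone reductase, lay between -2.38 and 0.56 in LFC (median -0.81), between -4.75 and 0.00 in HFC (-0.55), between -1.72 and 1.03 in HF5 (0.14), between -1.05 and 0.59 in HF20 (-0.25) and between -2.01 and 0.85 in HF75 (0.13). Its 4 lowest levels were those of the first days, with -4.75 in HFC at Day 1, -2.02 in HFC and -2.38 in LFC at Day 6, and -2.62 in HFC at Day 10. These 4 arrays are all among the 6 that were low in immediate early genes.

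The subunits of glutamate-cysteine ligase did not vary together. Gclc, the catalytic subunit, lay between -0.47 and 1.94 in LFC (median 0.76), between -0.95 and 1.43 in HFC (0.65), between 0.70 and 1.77 in HF5 (1.33), between 0.81 and 1.5 in HF20 (1.14) and between 0.53 and 1.52 in HF75 (0.61). Like Nqo1, it was lowest in the first days, with -0.95 in HFC at Day 1. Gclm, the modifier subunit, lay between -3.42 and -1.97 in LFC (median -2.29), between -3.49 and -1.33 in HFC (-2.57), between -3.12 and -2.26 in HF5 (-2.68), between -3.45 and -2.37 in HF20 (-2.52) and between -2.81 and -1.75 in HF75 (-2.38). It had no low values at Day 6, where it stood at -1.97 in LFC and -1.93 in HFC.
Txnrd1, the cytosolic thioredoxin reductase, lay between 2.24 and 5.21 in LFC (median 3.48), between 2.36 and 4.53 in HFC (3.74), between 3.27 and 4.74 in HF5 (4.29), between 3.09 and 4.59 in HF20 (3.93) and between 3.08 and 4.42 in HF75 (3.72). Its highest level was that of LFC at Week 15, the same array that held the highest Hmox1 and Gclc.
Srxn1, which repairs overoxidised peroxiredoxins, lay between 1.22 and 4.42 in LFC (median 2.63), between 1.47 and 4.54 in HFC (2.41), between 1.78 and 4.06 in HF5 (2.77), between 2.39 and 3.35 in HF20 (2.63) and between 1.95 and 2.56 in HF75 (2.34). The HF75 arrays lay closest together, within a span that no other diet's arrays kept to.

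**Figure D1:**
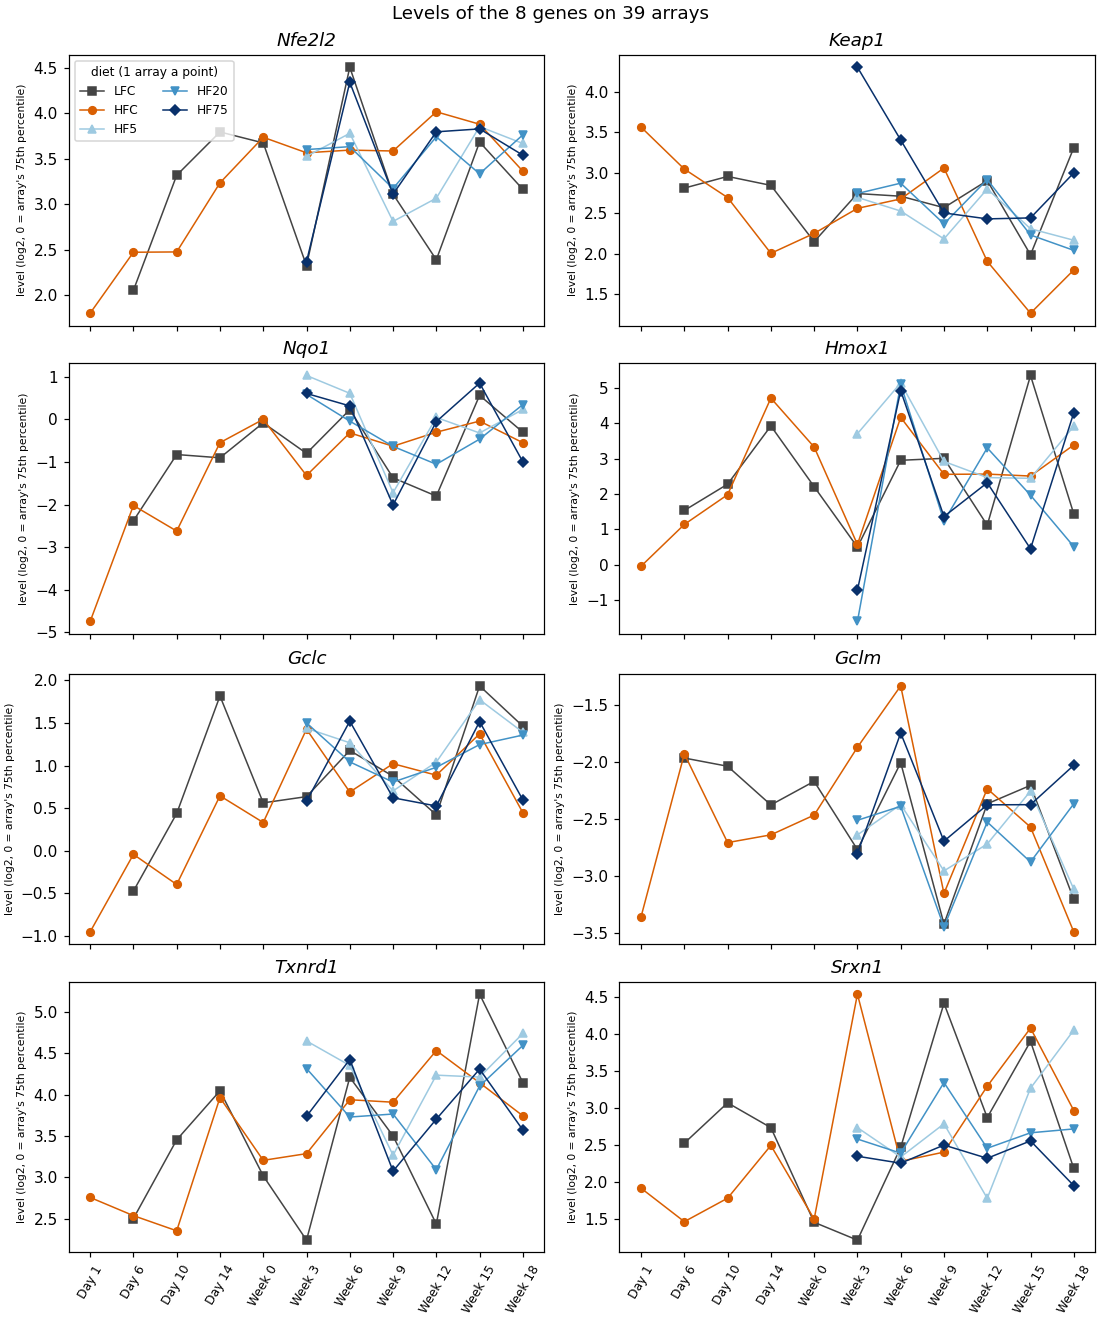
Levels of the 8 genes by time point, 1 panel a gene. The vertical axis is the log2 level relative to the array's 75th percentile, and each point is 1 array, coloured by diet (LFC, HFC, HF5, HF20, HF75) and joined within a diet. The diets cross in every panel, Nqo1 and Gclc start low in HFC (-4.75 and -0.95 at Day 1), and Hmox1 has the widest range (-1.60 to 5.35).

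Srxn1 was read by 3 probes, of which P297032 gave the highest mean and was used. Its mean level over the 39 arrays was 2.63, against -1.79 for P330125 and -1.74 for P593200. All Srxn1 values not marked otherwise rest on this 1 probe. The bases shown are the last 30 of P593200, the first 30 of P330125 and the first 30 of P297032, as designed on the array. Capitals mark the 13 bases that the first pair share, so these probes read adjoining pieces of 1 transcript.
P593200: ctttatgatagcactatATGAACTATGTAC
P330125: ATGAACTATGTACtaggaagtaaaggaaaa
P297032: aaagagactagggagagaaagcacattagc
The adjoining probes followed each other over the 39 arrays with r 0.960 (rho 0.945), and P297032 followed them with r 0.773 for P330125 (rho 0.712) and 0.793 for P593200 (rho 0.714). No run of more than 7 bases was shared between P297032 and either of them. Differences of the other 2 probes come from a fit across all probes and stand beside those of P297032 where diets are compared.

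The first comparison asked how the high-fat diet alone moved the NRF2 system, with HFC set against LFC at the 10 shared time points. A limma model across all genes compared the diets within each time point, and Benjamini-Hochberg adjustment ran over all genes tested. None of the 8 genes passed an adjusted p of 0.05, and neither did any of the 19873 genes tested (0%). At an unadjusted p of 0.05, 0 of the 8 passed, against 1165 of all genes (5.86%).
Keap1 had the smallest p of the 8, and its level was lower in HFC at 7 of 10 time points, by a mean of 0.37 on the log2 scale (difference -0.37, 95% interval -0.83 to 0.09, limma p = 0.105, adjusted p = 0.803). In Nfe2l2, HFC exceeded LFC at 7 of 10 time points, with a difference of 0.19 (-0.37 to 0.75).
The target genes had no common direction. Differences were -0.07 for Nqo1 (-0.67 to 0.53), 0.26 for Hmox1 (-0.61 to 1.13) and -0.25 for Gclc (-0.73 to 0.24). For Gclm the difference was 0.01 (-0.39 to 0.41), for Txnrd1 0.08 (-0.55 to 0.72) and for Srxn1 0.00 (-0.91 to 0.91). HFC was higher at 4 to 6 of the 10 time points for each of the 6 targets. With scan day as the block, the direction turned in Nfe2l2, Gclm, Txnrd1 and Srxn1. Without the 6 arrays low in immediate early genes the differences were 0.10 for Nfe2l2, -0.38 for Keap1, -0.11 for Nqo1, 0.26 for Hmox1, -0.36 for Gclc, 0.09 for Gclm and -0.03 for Txnrd1, which turned its direction. With 1 time point left out, Hmox1 lay between 0.07 (without Week 18) and 0.60 (without Week 15), Nfe2l2 between 0.03 (without Week 12) and 0.31 (without Week 6), Gclc between -0.36 (without Week 3) and -0.14 (without Day 14) and Keap1 between -0.47 (without Week 9) and -0.24 (without Week 18). The intervals over all arrays leave room for changes of up to about 1 log2 unit in Hmox1 and Srxn1 and of up to 0.83 in the other 6 genes.
Srxn1 shows how far single time points diverged. At Week 3 it stood at 1.22 in LFC and 4.54 in HFC, while at Week 9 it stood at 4.42 in LFC and 2.41 in HFC. The difference between diets thus ran from 3.33 to -2.01. The LFC array of Week 3 is the one that stood apart in lymphocyte genes, and without Week 3 the mean difference was -0.37. Without the 6 arrays low in immediate early genes its mean difference was 0.27, and with the other 2 probes it was 0.18 and 0.21, none of which passed the test.

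Whether the effect of the diet changed with time was asked by setting the difference between HFC and LFC at Week 3 to Week 18 against that at the first 4 time points. None of the 8 genes passed, nor did any of the 19873 genes (0%), and 0 of the 8 against 375 genes (1.89%) had an unadjusted p under 0.05. Gclm had the smallest p of the 8 (0.52 higher late than early, -0.28 to 1.32, limma p = 0.180, and 0.52 without the 6 arrays). Over Week 3 to Week 18 alone, where the fit took in all 5 diets, 0 of the 8 and 0 of 21087 genes (0%) passed, and 0 of the 8 against 1067 genes (5.06%) had an unadjusted p under 0.05, which became 1 of the 8 with slide as a random block, without Week 6 or without Week 9. There, Keap1 was lower in HFC at 5 of 6 time points (-0.49, -1.06 to 0.08, limma p = 0.0876) and Nfe2l2 was higher at 5 of 6 (0.47, -0.11 to 1.05, limma p = 0.106), both with an adjusted p of 0.850. Without the 6 arrays low in immediate early genes the difference was -0.45 for Keap1 and 0.30 for Nfe2l2, and with 1 time point left out that of Nfe2l2 lay between 0.24 (without Week 12) and 0.75 (without Week 6) and that of Keap1 between -0.69 (without Week 9) and -0.29 (without Week 18). All 6 HFC arrays of this span had Nfe2l2 between 3.36 and 4.01, whereas LFC ran from 2.32 to 4.50, on both sides of them.

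KAL-1 was then compared with the high-fat diet alone, at matched time points and at each dose. No gene passed an adjusted p of 0.05 at any dose, neither among the 8 nor among all 21087 genes (0% for HF5, HF20 and HF75 alike). At an unadjusted p of 0.05, 0 of the 8 passed for HF5, against 287 genes (1.36%), 0 for HF20, against 901 genes (4.27%), and 2 for HF75, against 1059 genes (5.02%). The pair was Keap1, which was higher, and Srxn1, which was lower. The count for HF20 became 2 with normexp, against 10214 genes, and 1 without Week 18, against 2363 genes.
At Week 3, 6, 9, 12, 15 and 18, Keap1 read 2.56, 2.68, 3.06, 1.91, 1.27 and 1.80 in HFC and 4.30, 3.40, 2.50, 2.43, 2.44 and 3.00 in HF75. HF75 was the higher of the pair at 5 of 6 time points, all but Week 9, although the ranges overlapped. The mean was 2.21 ± 0.66 in HFC and 3.01 ± 0.74 in HF75 (SD, n = 6 each). The difference was 0.80 with a 95% interval of 0.23 to 1.37 (limma p = 0.00796, adjusted p = 0.866). At the lower doses the difference from HFC was 0.24 for HF5 (-0.33 to 0.81) and 0.32 for HF20 (-0.25 to 0.89), and the latter turned to -0.23 with the normexp background correction.
Srxn1 at the same time points read 4.54, 2.28, 2.41, 3.30, 4.09 and 2.97 in HFC and 2.35, 2.26, 2.50, 2.32, 2.56 and 1.95 in HF75. HF75 was lower at 5 of 6 time points, and the difference came mostly from Week 3, Week 12, Week 15 and Week 18, where HFC was at or above 2.97. The mean was 3.27 ± 0.91 in HFC and 2.33 ± 0.21 in HF75 (SD, n = 6 each). The difference was -0.94 (-1.83 to -0.05, limma p = 0.0400, adjusted p = 0.866). In the limma fit across all probes, the other probes gave -0.74 (p = 0.150) and -0.81 (p = 0.104). Differences at the lower doses were -0.43 for HF5 (-1.33 to 0.46) and -0.57 for HF20 (-1.46 to 0.32), and with the other probes they were -0.16 and -0.13 for HF5 and -0.54 and -0.69 for HF20. With 1 time point left out, Srxn1 lay between -0.74 (without Week 18) and -0.16 (without Week 3) for HF5 and between -0.87 (without Week 9) and -0.29 (without Week 3) for HF20. Keap1 lay between 0.07 (without Week 15) and 0.46 (without Week 9) for HF5 and between 0.18 (without Week 12) and 0.52 (without Week 9) for HF20.

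The HF75 array of Week 3, which carried the highest Keap1, was one of those low in immediate early genes. It also had the lowest mean level of the 6 macrophage markers on the array (-1.87, against -1.44 to 2.29 on the others) and the highest of the skeletal muscle genes (7.62). Without the 6 arrays, Keap1 was 0.59 higher in HF75 (0.04 to 1.13, limma p = 0.0357, adjusted p = 0.852) and Srxn1 0.97 lower (difference -0.97, -1.95 to 0.02, limma p = 0.0535). With scan day in place of the time point as the block, the Keap1 difference was 0.77 and that of Srxn1 -1.03. With the arrays of all diets at 1 time point left out in turn, Keap1 stayed between 0.61 and 1.07 and Srxn1 between -1.15 and -0.69. The count of 2 of the 8 genes at an unadjusted p of 0.05 fell to 1 without Week 3, Week 12, Week 15 or Week 18, without the 6 arrays and with normexp or the methods' t-test. Apart from Week 3, the macrophage list was also lower in HF75 than in HFC at Week 6 (1.58 against 1.77), Week 12 (0.84 against 1.18), Week 15 (-0.18 against 1.81) and Week 18 (-0.23 against 1.82), which are the time points at which Keap1 was higher, and it was higher at Week 9 (1.73 against 0.56). Over the 6 time points its mean level was 0.31 in HF75 and 1.32 in HFC, and that of the skeletal muscle genes was 0.75 and -2.43. The part of macrophage or muscle RNA in these differences was not tested.
The remaining genes had intervals that included 0 at all doses. For HF75 against HFC the differences were -0.17 in Nfe2l2 (-0.75 to 0.41), 0.31 in Nqo1 (-0.51 to 1.14), -0.52 in Hmox1 (-2.10 to 1.06, and 0.37 with slide as a random block), -0.08 in Gclc (-0.54 to 0.38), 0.11 in Gclm (-0.41 to 0.62) and -0.12 in Txnrd1 (-0.87 to 0.63). Nqo1, the most used readout of NRF2 activation, was thus not shown to rise in HF75, and an increase of more than 1.14 log2 units lies outside its interval there. With 1 time point left out, this difference lay between -0.01 (without Week 3) and 0.65 (without Week 9). Against HFC, Nqo1 differed by 0.51 in HF5 (-0.32 to 1.33) and by 0.32 in HF20 (-0.51 to 1.14). For HF75 against HFC the median difference of the 8 genes was -0.10, and that of all genes tested was 0.00.

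**Figure D2:**
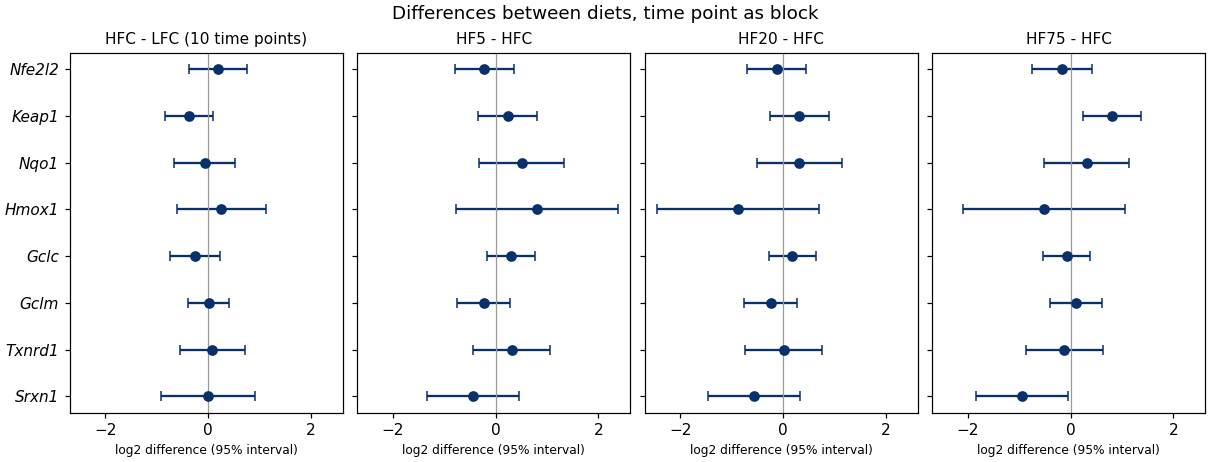
Log2 differences of the 8 genes between diets, with 95% intervals from limma (time point as block). Panels show HFC minus LFC over 10 time points and HF5, HF20 and HF75 minus HFC over 6, and only Keap1 (0.80) and Srxn1 (-0.94) in HF75 have intervals that leave out 0, before adjustment over all genes.

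A trend over the order HFC, HF5, HF20 and HF75 was fitted as 1 step per dose. No gene passed after adjustment, neither among the 8 nor among 21087 (0%), and at an unadjusted p of 0.05, 2 of the 8 passed, against 1183 of all genes (5.61%). They were again Keap1, with 0.25 per step (0.07 to 0.42, limma p = 0.00712), and Srxn1, with -0.30 per step (-0.57 to -0.03, limma p = 0.0335), and both had an adjusted p of 0.847. For Srxn1, the other probes gave -0.26 (p = 0.0973) and -0.30 (p = 0.0511) per step in the limma fit across all probes, so that neither passed the unadjusted threshold. The trend and the comparison of HF75 with HFC share the arrays of both diets. After exchange of the HF5 and HF20 arrays whose labels are in doubt, the steps were 0.24 and -0.32. Without the 6 arrays low in immediate early genes they were 0.18 and -0.30. Here too the count of 2 fell to 1 without Week 3, Week 12, Week 15 or Week 18 and with normexp.
Between the highest and the lowest dose, 0 of the 8 and 0 of 21087 genes (0%) passed, and 0 of the 8 against 398 genes (1.89%) had an unadjusted p under 0.05. With scan day as the block 2 of the 8 did, against 2223 genes, and with slide as a random block 2, against 1085 genes, while 1 did without Week 9 or Week 12. Keap1 was 0.57 higher in HF75 than in HF5 (-0.00 to 1.14, limma p = 0.0516) and Hmox1 1.32 lower (difference -1.32, -2.90 to 0.25, limma p = 0.0961), with HF75 below HF5 at 5 of 6 time points. Without Week 3, whose HF75 array is one of the 6 low in immediate early genes, these differences were 0.36 for Keap1 and -0.71 for Hmox1. Over Week 3 to Week 18 the mean level of the macrophage list was 0.31 in HF75 and 0.96 in HF5, and its part in these differences was not tested. Gclc was lower in HF75 at 5 of 6 time points (-0.37, -0.84 to 0.09, limma p = 0.108). With the 6 arrays left out the differences were 0.35 for Keap1, -1.12 for Hmox1 and -0.29 for Gclc.

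**Figure D3:**
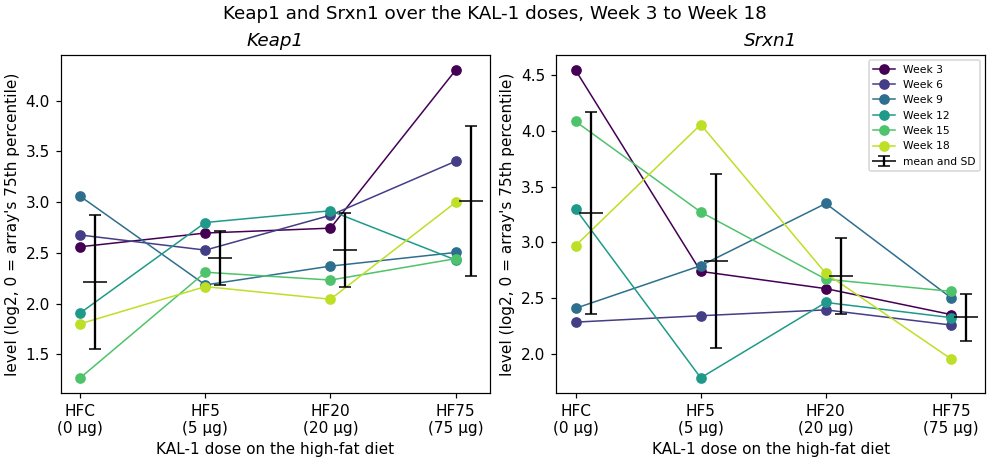
Keap1 and Srxn1 at each KAL-1 dose on the high-fat diet. The vertical axis is the log2 level relative to the array's 75th percentile, lines join the arrays of 1 time point, and black bars give mean and SD of 6 arrays. Keap1 is highest in HF75 at Week 3 (4.30), and Srxn1 in HF75 stays between 1.95 and 2.56.

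Set against the normal diet, the KAL-1 groups showed no called gene at any dose (0 of the 8 and 0 of 21087, 0%). None of the 8 had an unadjusted p under 0.05, against 516 genes for HF5 (2.45%), 598 for HF20 (2.84%) and 765 for HF75 (3.63%). Without Week 15, 2 of the 8 did for HF5, and without Week 3, 1 did for HF75. The smallest p among the 8 belonged to Txnrd1 for HF5 (0.62, -0.13 to 1.37, limma p = 0.102), to Nfe2l2 for HF20 (0.34, -0.23 to 0.92, limma p = 0.231) and to Gclm for HF75 (0.33, -0.18 to 0.84, limma p = 0.200). Nqo1 had its own smallest p over all comparisons in HF5 against LFC (0.56, -0.27 to 1.39, limma p = 0.174). Leaving out the 6 arrays gave 0.39 for Txnrd1, 0.17 for Nfe2l2, 0.51 for Gclm and 0.33 for Nqo1 in the same comparisons, and leaving out 1 time point gave 0.26 (without Week 3) to 0.94 (without Week 15) for Txnrd1, 0.14 (without Week 12) to 0.59 (without Week 6) for Nfe2l2, 0.16 (without Week 18) to 0.42 (without Week 15) for Gclm and 0.30 (without Week 12) to 0.85 (without Week 15) for Nqo1. HF5, HF20 and HF75 share their LFC arrays in these comparisons and their HFC arrays in the former ones.

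Change over the 15 weeks from Week 3 to Week 18 was fitted as 1 slope in all 5 diets. Here 20 of 21087 genes passed (0.0948%), but none of the 8 did. One of the 8, Keap1, had an unadjusted p under 0.05, against 3273 of all genes (15.5%). Its level fell by 0.05 log2 units per week (slope -0.05, -0.08 to -0.01, limma p = 0.0104, adjusted p = 0.211), and by 0.04 without the 6 arrays (slope -0.04). The time point is confounded with scan day, and with scan day as a random block no gene at all passed. The count of 1 at an unadjusted p became 0 under that block, without Week 3 or without Week 15, and 3 without Week 6. The other 7 genes had limma p between 0.174 and 0.786.

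Other genes of the NRF2 system were read from a list of 47, all on the array, in 6 roles (regulators, glutathione, thioredoxin and peroxiredoxin, NADPH supply, iron and heme, and detoxification). None passed after adjustment in any of the 12 comparisons. At an unadjusted p of 0.05, 3 were higher and 1 was lower in HFC than in LFC over 10 time points, where 46 were tested and 5.86% of all genes passed. Those higher were Gss, glutathione synthetase (0.46, 0.08 to 0.84), Aox1, aldehyde oxidase (1.21, 0.13 to 2.29), and Abcc1, an exporter of glutathione conjugates (0.45, 0.01 to 0.90), and the lower one was Nfe2l1, the NRF2-related factor that controls proteasome genes (-0.91, -1.80 to -0.01).
Against HFC, 0 were higher and 1 was lower for HF5, 1 and 3 for HF20, and 1 and 1 for HF75, of 47 tested in each. Of all genes, 1.36%, 4.27% and 5.02% passed this unadjusted threshold, and the few named here are a description of the list. The list's median difference was -0.20, -0.24 and -0.12 at the 3 doses, and that of all genes 0.00, 0.05 and 0.00. Prdx6, a peroxiredoxin that reduces phospholipid peroxides, was the one lower in HF5 (-0.67, -1.32 to -0.02) and was also lower in HF20 (-0.74, -1.39 to -0.09), together with Aox1 (-1.16, -2.27 to -0.04) and Mgst1, a microsomal glutathione transferase (-0.94, -1.87 to -0.02). Fth1, the ferritin heavy chain, was higher in HF20 (0.73, 0.04 to 1.42). In HF75, Ugdh, which makes UDP-glucuronate, was lower (-1.62, -3.05 to -0.18), and Nfe2l1 was higher (1.15, 0.03 to 2.27).
Against LFC, none of the 47 was higher and 2, 3 and 2 were lower at this threshold for HF5, HF20 and HF75, where 2.45%, 2.84% and 3.63% of all genes passed. Over Week 3 to Week 18, Tkt, transketolase, was lower than in LFC in HFC (-0.95, -1.88 to -0.02), HF5 (-1.18, -2.11 to -0.25), HF20 (-1.09, -2.02 to -0.16) and HF75 (-0.98, -1.91 to -0.05). For HFC in this span, 1 of the 47 was higher, Aox1 (1.45), and 2 were lower, Tkt and Nfe2l1 (-1.22), where 5.06% of all genes passed. In HFC against LFC over 10 time points Tkt did not pass. Me1, the malic enzyme, was lower in HF5 (-1.55, -2.94 to -0.15) and HF20 (-1.91, -3.31 to -0.52), and Pgd, phosphogluconate dehydrogenase, in HF20 (-1.05, -2.01 to -0.10) and HF75 (-1.0, -1.96 to -0.05). These 4 comparisons share the 6 LFC arrays, and the smallest adjusted p among them was 0.850.

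The 8 genes were next compared with each other over the arrays, in 28 pairs, by Pearson's r and Spearman's rho with 100000 permutations and adjustment over the pairs. All values of an array share its RNA, its labelling and its scaling. Nfe2l2, Nqo1, Gclc and Txnrd1 varied together, with r between 0.70 and 0.78 in their 6 pairs over the 39 arrays (rho 0.58 to 0.79) and the smallest permutation p possible, 1e-05, in all 6 (adjusted p = 4.67e-05). Without the 2 arrays farthest from the median of the first gene, r was between 0.56 and 0.77. Over the 39 arrays these 6 pairs are the highest of the 28, and the other pairs reached at most 0.48. The group is thus a description of these same correlations and not a separate test.
Part of the joint variation of Nfe2l2, Nqo1, Gclc and Txnrd1 came from the 6 arrays low in immediate early genes. On the other 33 arrays r was between 0.39 and 0.68 in the 6 pairs, and 5 of the 6 passed. Txnrd1 stayed closest to Nqo1 (r 0.684, rho 0.754, permutation adjusted p = 0.00056 for r) and to Gclc (r 0.679, rho 0.713, permutation adjusted p = 0.00056). Nfe2l2 with Txnrd1 had r 0.528 and Nfe2l2 with Nqo1 0.508, and the pair that no longer passed was Nfe2l2 with Gclc (r 0.391, permutation adjusted p = 0.0755). With 2 more arrays left out of the 33, r was between 0.37 and 0.65, and 3 of the 6 pairs passed. After diet and time point were removed from all 39 arrays, r was between 0.40 and 0.83, with Nqo1 and Txnrd1 at 0.832, and all 6 passed. The permutation treated these residuals as independent, which they are not once diet and time point have been fitted. Its p-values are therefore too small, and the weakest pair, Nqo1 with Gclc, had r 0.403 (permutation adjusted p = 0.0470).
Hmox1, Srxn1, Gclm and Keap1 were less closely tied to Nfe2l2, Nqo1, Gclc and Txnrd1 and to each other. Their 22 pairs had a median r of 0.12 over 39 arrays, and 5 passed, 3 of them positive. Those 3 were Nfe2l2 with Hmox1 (r 0.475, permutation adjusted p = 0.00884), Gclc with Srxn1 (r 0.449, permutation adjusted p = 0.0140) and Txnrd1 with Srxn1 (r 0.416, permutation adjusted p = 0.0266). On the 33 arrays 1 of the 22 passed, Nfe2l2 with Gclm (r 0.531, rho 0.592, permutation adjusted p = 0.0125). Its r was above those of Nfe2l2 with Txnrd1 and with Nqo1. Gclc and Gclm, whose proteins form 1 enzyme, had r 0.11 over 39 arrays and 0.33 after diet and time point were removed. Keap1 and Srxn1 had r -0.41 over 39 arrays (rho -0.46, permutation adjusted p = 0.0283) and -0.39 on the 33 (rho -0.45, permutation adjusted p = 0.0755 for r and 0.0477 for rho). Keap1 and Nfe2l2 had r -0.40 over 39 arrays (permutation adjusted p = 0.0317) and -0.03 on the 33, so that this relation rested on the 6 arrays.

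**Figure D4:**
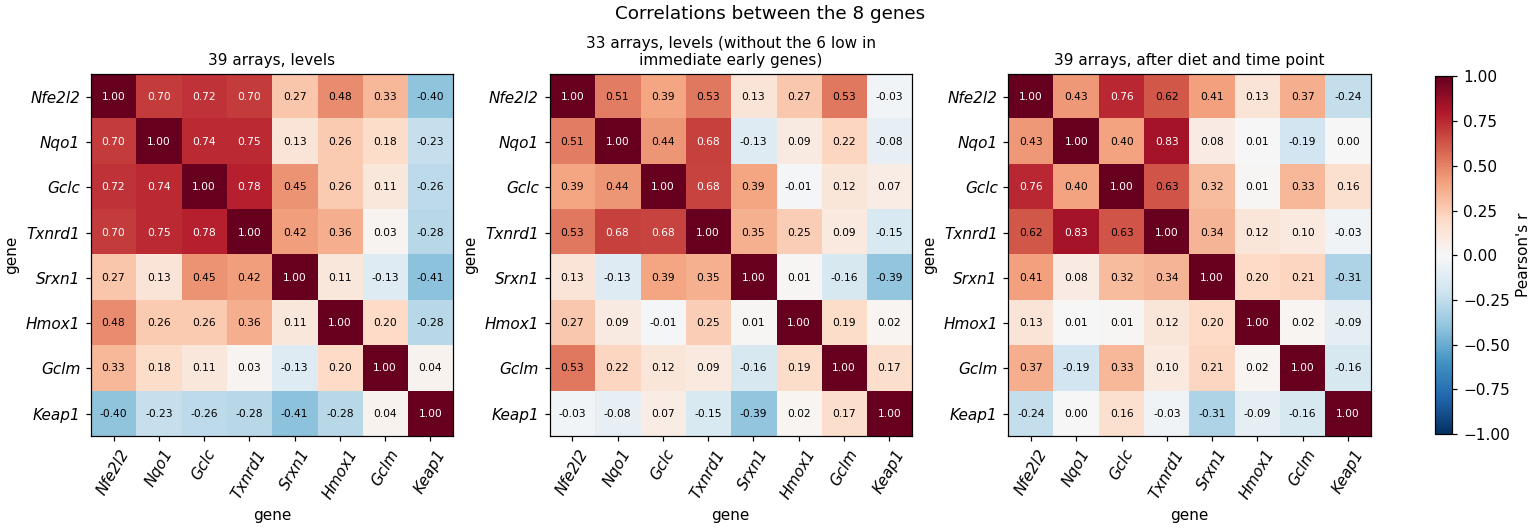
Pearson's r between the 8 genes, over 39 arrays, over the 33 arrays that were not low in immediate early genes, and over 39 arrays after diet and time point were removed. Colour runs from -1 (blue) to 1 (red), and the block of Nfe2l2, Nqo1, Gclc and Txnrd1 is positive in all 3 panels (0.70 to 0.78, 0.39 to 0.68 and 0.40 to 0.83).

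Marker lists of 12 kinds were set beside the 8 genes, in 96 pairs adjusted together, after the levels had been seen. Because the arrays fall into 6 and 33 by the immediate early genes, no correlation of measured levels over all 39 is given for that list. The 6 arrays had a median of 2.38 in Nfe2l2 against 3.60 on the 33, of -2.20 against -0.30 in Nqo1, of -0.22 against 1.04 in Gclc and of 2.52 against 3.96 in Txnrd1. Keap1 ran the other way, with 2.97 against 2.53, and Gclm was near even, with -2.54 against -2.47. Hmox1 had 1.13 against 2.56 and Srxn1 2.14 against 2.56. The endothelial list, with 1.96 against 3.88, and the brown fat list, with 2.13 against -2.30, also differed between the 6 and the 33. Within the 33 arrays the immediate early genes had r 0.367 with Nfe2l2 (rho 0.318) and 0.367 with Txnrd1 (rho 0.279), with permutation adjusted p of 0.133 for each r.
Of the 96 pairs, 36 passed over the 39 arrays, 18 after diet and time point were removed (by p-values that are too small, as said above) and 2 on the 33 arrays. The latter were Nqo1 with 3 red blood cell genes on the array (r -0.573, rho -0.565, permutation adjusted p = 0.0293; r -0.515 without 2 more arrays, adjusted p = 0.0637) and Nfe2l2 with the lymphocyte list (r -0.584, rho -0.390, permutation adjusted p = 0.0293; r -0.469 without 2 more arrays, adjusted p = 0.102). Neither passed without those 2 arrays.
Keap1 and the macrophage list had r -0.58 over 39 arrays (rho -0.51, permutation adjusted p = 0.000886) and -0.43 without the 2 arrays farthest from the median of Keap1. On the 33 arrays r was -0.40 (rho -0.46, permutation adjusted p = 0.0983), and after diet and time point were removed it was -0.69 over the 39 (permutation adjusted p = 0.00032). Macrophages were not alone in this. On the 33 arrays Keap1 had r 0.47 with the mature adipocyte list (permutation adjusted p = 0.0614) and 0.44 with the red blood cell list (permutation adjusted p = 0.0793), both larger in size than with macrophages and neither past the threshold. After the removal of diet and time point Keap1 had r -0.61 with the fibroblast and progenitor list (permutation adjusted p = 0.00128), against -0.33 over the 39 arrays as measured and -0.43 on the 33, neither of which passed. With the lymphocyte list it had r -0.55 after diet and time point were removed (permutation adjusted p = 0.00375), against -0.22 and -0.12, so that this relation appeared only after the removal. The permutation p-values after the removal are too small here as well.
For Nfe2l2 the residual r was 0.70 with the immediate early, 0.69 with the heat shock, 0.67 with the endothelial and -0.57 with the skeletal muscle list, and for Nqo1 it was -0.54 with the brown fat list. On the 33 arrays these 5 were 0.37, 0.33, 0.47, -0.48 and -0.51, and none of them passed. The summed level of the macrophage markers, in units of the 75th percentile, ran from 7.30 to 21.2 in LFC, from 4.02 to 35.6 in HFC, from 5.57 to 32.6 in HF5, from 4.73 to 37.0 in HF20 and from 2.91 to 25.0 in HF75. What part this has in the Keap1 levels was not tested.

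**Figure D5:**
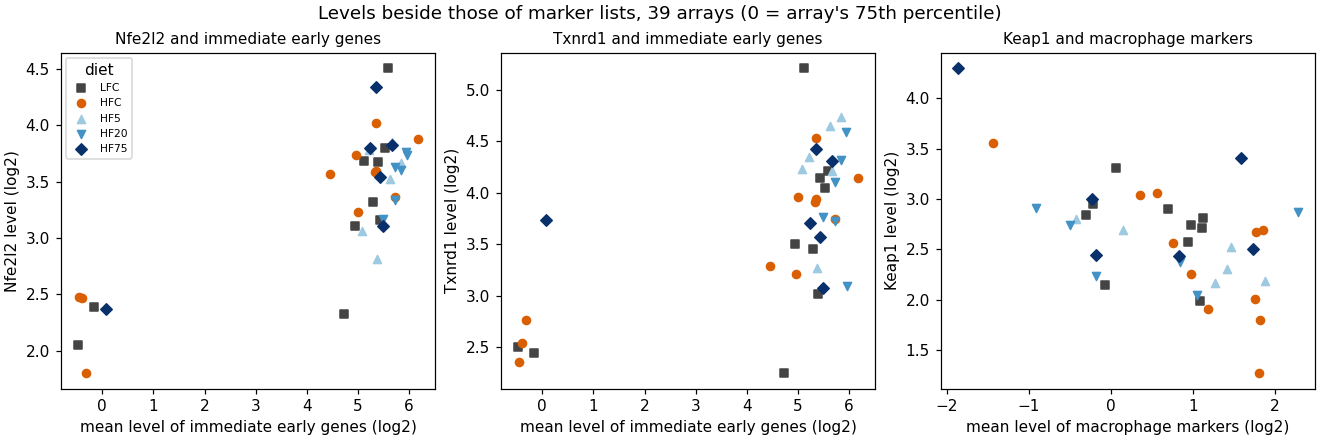
Levels of Nfe2l2 and Txnrd1 against the mean level of 5 immediate early genes, and of Keap1 against that of 6 macrophage markers, on 39 arrays coloured by diet. Axes are log2 levels relative to the array's 75th percentile, and 6 arrays lie apart at the left of the first 2 panels (immediate early genes at or below 0.07, the others at or above 4.45).

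The genes whose levels were most like those of each member over the 39 arrays were taken from 19041 other genes, and these likenesses are descriptions with no test. Nfe2l2 ran closest to Ednrb (r 0.917, rho 0.811), Ptpn12 (0.905, 0.812) and Lrrc8a (0.900, 0.757), and 238 genes had r above 0.8 with it, so that its pattern was a common one. Txnrd1 had 48 such genes, led by Rnf19b (r 0.871, rho 0.878), Adamts4 (0.867, 0.838) and Fbxo30 (0.853, 0.815), and Gclc had 17, led by Arl13b (0.876, 0.859), Gcnt2 (0.861, 0.809) and Slc20a1 (0.842, 0.797).
Keap1 had 8, among them BC003266 (r 0.872, rho 0.834) and 9430023L20Rik (0.852, 0.775). Nqo1 had 1, Rai14 (0.843, 0.678), followed by Tsc22d2 (0.799, 0.713) and Il20rb (0.797, 0.711), and Hmox1 had 1, Hpcal1 (0.803, 0.858), followed by Gm6943 (0.763, 0.779) and Acvrl1 (0.756, 0.785). Srxn1 came closest to Vasn (0.692, 0.695), Ugdh (0.675, 0.616) and Zfp655 (0.669, 0.620), and Gclm to BC027231 (0.631, 0.565), Ywhaq (0.625, 0.708) and Wwox (0.620, 0.668), with no gene above 0.8 for either. On the 33 arrays the r with these genes was 0.79 to 0.81 for Nfe2l2, 0.77 to 0.87 for Txnrd1, 0.66 to 0.80 for Gclc, 0.76 to 0.79 for Keap1, 0.56 to 0.70 for Nqo1, 0.70 to 0.77 for Hmox1, 0.65 to 0.72 for Srxn1 and 0.62 to 0.76 for Gclm.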

How the data were processed

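The authors deposited 1 Agilent scanner file per array. Per the file headers, Feature Extraction 10.5.1.1 gave the processed intensity, with background subtracted and trends over the slide removed (the submitters' processing notes name version 9.1). The authors also deposited a log2 ratio table with 39 columns, used only as an alternative. Control spots and outlier spots were left out, spots of a probe were averaged, intensities were divided by each array's 75th percentile and log2 was taken. Each gene was read by its probe of highest mean. Genes well above background on at least 6 arrays (5 diets, 30 arrays) or 10 (2 diets, 20 arrays) were tested in R 4.3.3 by limma 3.58.1, whose model held a term for each time point (the block), and p-values were adjusted over all genes tested. The fits were tested on simulated data. With 1 array per diet and time point, the number of arrays limits the precision. The 8 genes and all gene lists were chosen with earlier results of these data known. Named were all 8 genes, of the pathway list the 4 with the smallest p in a comparison, and for each gene the 3 most like it, of which 1 is not reported here. Alternatives were another background correction (normexp, offset 50), quantile normalization, no filter, outlier spots kept, scan day, slide or no block, the ratio table, the methods' t-test, other probes and each time point left out. The exchange of the Week 12 arrays and leaving out 1 or 6 arrays were added after the data had been seen.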

Additional observations from a re-analysis of the deposited data

Results flagged for a closer look

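Of 32 gene and diet groups of 6 or 10 arrays, 2 held an array farther from the rest than Dixon's test allows at the 95% level, where chance alone gives about 1 in 20. The HFC groups, of 11 arrays each, were not put to this test. Txnrd1 in HF5 was 3.27 at Week 9, with the nearest of the other 5 arrays at 4.21 and the highest at 4.74. Srxn1 in HF20 was 3.35 at Week 9, with the nearest at 2.72 and the lowest at 2.39. The HFC array of Day 1 has no LFC partner and entered no comparison. On it Keap1 was 3.56, above the highest LFC array (3.31) and second only to HF75 at Week 3 among the 39, while Nqo1 (-4.75), Nfe2l2 (1.80) and Gclc (-0.95) were the lowest of all arrays. That array is 1 of the 6 low in immediate early genes, and the part of this in its levels was not tested.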

How the results depend on the processing

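Over 34 differences of single genes and 629 values under other settings, no gene of the 8 passed the adjusted test under any setting, and the smallest adjusted p was 0.0850. No gene at all was called between diets in the other settings except with normexp, which called 8189 genes for HF20 against HFC where the median of all genes was 0.36, against 0.05 before. The methods' t-test is made within a time point, which 1 array per diet does not allow. It was therefore run here unpaired, over the arrays of different time points. In this form it called 227 to 594 genes at its unadjusted threshold and 0 after Benjamini-Hochberg adjustment. The time point served as the replicate block, because arrays of 1 time point were sampled together. With no replicate block the Keap1 difference between HF75 and HFC was 0.80 with a limma adjusted p of 0.994, and this pairing changed no call. The cause of the following changes was not tested. The 20 genes changing per week became 1 with normexp or slide as a random block, 3 with no filter, 0 with scan day as a random block and 89 without the 6 arrays, and between 0 (without Week 18) and 2894 (without Week 3) with 1 time point left out. Of the 28 correlations, 11 passed in all, 7 after diet and time point were removed and 6 without the 6 arrays. The 7 rest on permutation p-values that are too small, since the residuals were treated as independent.

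The direction of some differences turned, and those of Hmox1 (-0.52), Keap1 (0.32) and Nqo1 (0.31) among them were not close to 0. Between HFC and LFC these were Gclm (-0.32 with normexp, -0.0185 with quantile normalization, -0.00509 with scan day), Nfe2l2 (-0.0175 with scan day), Nqo1 (0.0105 with normexp), Txnrd1 (-0.16 with scan day, -0.0265 without the 6 arrays) and Srxn1 (0.23 with normexp, 0.0672 with quantile normalization, 0.0752 with scan day, 0.27 without the 6 arrays, 0.18 and 0.21 with its other probes). Between KAL-1 and HFC they were Keap1 in HF20 (-0.23 with normexp) and, in HF75, Gclc and Nfe2l2 (0.00408 and 0.00494 without the 6 arrays) and Hmox1 (0.37 with slide as a random block). With 1 time point left out, HFC minus LFC ran from -0.0855 to 0.0888 for Gclm, -0.24 to 0.12 for Nqo1, -0.37 to 0.22 for Srxn1 and -0.14 to 0.22 for Txnrd1, and HF75 minus HFC from -0.26 to 0.0730 for Gclc, -0.17 to 0.31 for Gclm, -0.35 to 0.0353 for Nfe2l2, -0.0112 to 0.65 for Nqo1 and -0.24 to 0.0204 for Txnrd1. Slide as a random block could not be fitted for the comparisons of 2 diets over 10 time points. The number of arrays limits what can be detected, and all member probes were above background.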
